A study of Mus musculus with 6 samples.

Results

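Calcineurin is the calcium-activated phosphatase that drives NFAT transcription factors into the nucleus, and RCAN proteins bind calcineurin and regulate it. In the osteoclast, the bone-resorbing cell formed when RANKL acts on myeloid precursors, calcium oscillations act through calcineurin on NFATc1, which is known as the master transcription factor of osteoclast formation. Rcan1 is itself a known target of NFAT, so its transcript is often read as a sign of calcineurin activity. The 10 genes described here are the calcineurin catalytic subunits Ppp3ca, Ppp3cb and Ppp3cc, the regulators Rcan1, Rcan2 and Rcan3, and the calcineurin-regulated factors Nfatc1, Nfatc2, Nfatc3 and Nfatc4. They were chosen by the gene name that the array files give a probe, out of 37074 gene names, and are read by 25 of 56605 probes. The rule names genes and uses no measured value, but the genes were picked with earlier results of these data known.

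The osteoclasts came from mice whose Ano1 gene, which encodes a calcium-activated chloride channel, is flanked by loxP sites (Ano1fl/fl, 3 arrays) and from littermates that also carry Ctsk-Cre (Ctsk-Cre;Ano1fl/fl, 3 arrays). Both groups therefore carry the floxed alleles, and they differ in a Cre recombinase expressed from the cathepsin K gene, a gene that itself rises as osteoclasts form. Cells of both groups were given RANKL for 5 days. The sample titles call them osteoclasts, and the labels also name bone marrow cells, from which the study grew osteoclasts. RNA was labelled with 1 dye and hybridised to 1 array per sample, so n = 3 per group throughout. The study took the cells from 3 mice per genotype.

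Each array held 59305 transcript spots, of which 33480 to 34951 were well above background and 0 were saturated. Correlations between arrays were at least 0.994 within a group and 0.944 to 0.950 between groups. Ano1, the gene to be deleted, stayed below the well-above-background mark on all 6 arrays, so its probe does not check the labels. On the arrays labelled Ctsk-Cre;Ano1fl/fl the osteoclast markers were higher, opposite in direction to what the study gives for osteoclast marker transcripts after loss of Ano1. Groups below are named as labelled.

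The arrays hold RNA of whole cultures, so more cells of a type and more RNA per cell cannot be told apart. Of 10 osteoclast marker genes, 9 were higher and 1 was lower in Ctsk-Cre;Ano1fl/fl, and their summed normalised intensity was 153557 to 166184 on the Ano1fl/fl arrays against 501627 to 566357. Of 13 tested stromal cell and osteoblast markers, 10 were higher and 2 were lower, and the sum over the 14 listed was 2756 to 3943 against 56428 to 93649. All 5 B cell markers were higher, with sums of 7646 to 9124 against 29064 to 56637. Of 8 T and NK cell markers, 3 were higher and 1 was lower (1533 to 1850 against 3527 to 6716), and of 8 neutrophil markers, 1 was higher and 5 were lower (302777 to 317896 against 202413 to 254481). Of 8 macrophage markers, 1 was higher and 3 were lower, and the sums overlapped (368954 to 384757 against 375895 to 420929). Of 4 tested endothelial markers, 1 was higher and 1 was lower (3704 to 4796 against 1749 to 2006), and Tek was well above background on no array. The part of other cell types in the differences described next was not tested.

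**Figure D1:**
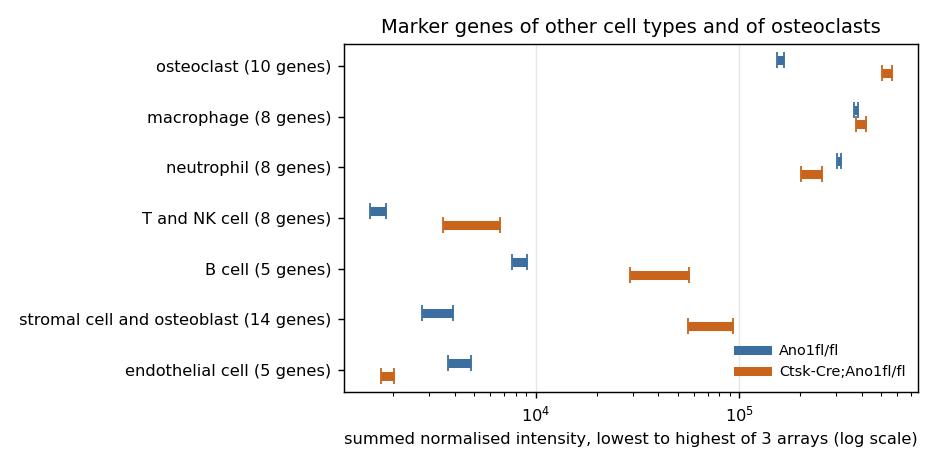
Summed normalised intensity of the marker genes of each cell type (horizontal axis, log scale), drawn from the lowest to the highest of the 3 arrays of each group, Ano1fl/fl in blue and Ctsk-Cre;Ano1fl/fl in orange. The stromal and B cell sums of the groups lie apart, with Ctsk-Cre;Ano1fl/fl higher, and the macrophage sums overlap.

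Of the 25 probes, 23 stood well above background throughout either group (all 3 arrays) and were tested. In Ctsk-Cre;Ano1fl/fl, 12 were higher and 5 were lower at an adjusted p under 0.05, and 6 were not called. Of the 12, 3 (2 of Rcan2 and 1 of Nfatc4) were well above background in Ctsk-Cre;Ano1fl/fl alone. Differences were widespread on these arrays. Over all 31848 tested probes 52.4% were called, 21.8% higher and 30.6% lower. The median log2 difference was 0.24 over the 23 tested probes of the 10 genes and -0.09 over all tested probes. The groups did not overlap for 18 of the 23, against 64.0% of all tested probes. More than 2-fold differences were called for 9 of the 23, all higher but 1, where all tested probes gave 8.91% higher and 8.11% lower. The 3 probes well above background in Ctsk-Cre;Ano1fl/fl alone are among both the 18 and the 9 and enter the median. They passed the filter only because they were bright in that group, so they add no support to these values. The transcript and gene name of 18 of the 25 probes could be matched to RefSeq, and all 18 had the same symbol there.

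**Figure D2:**
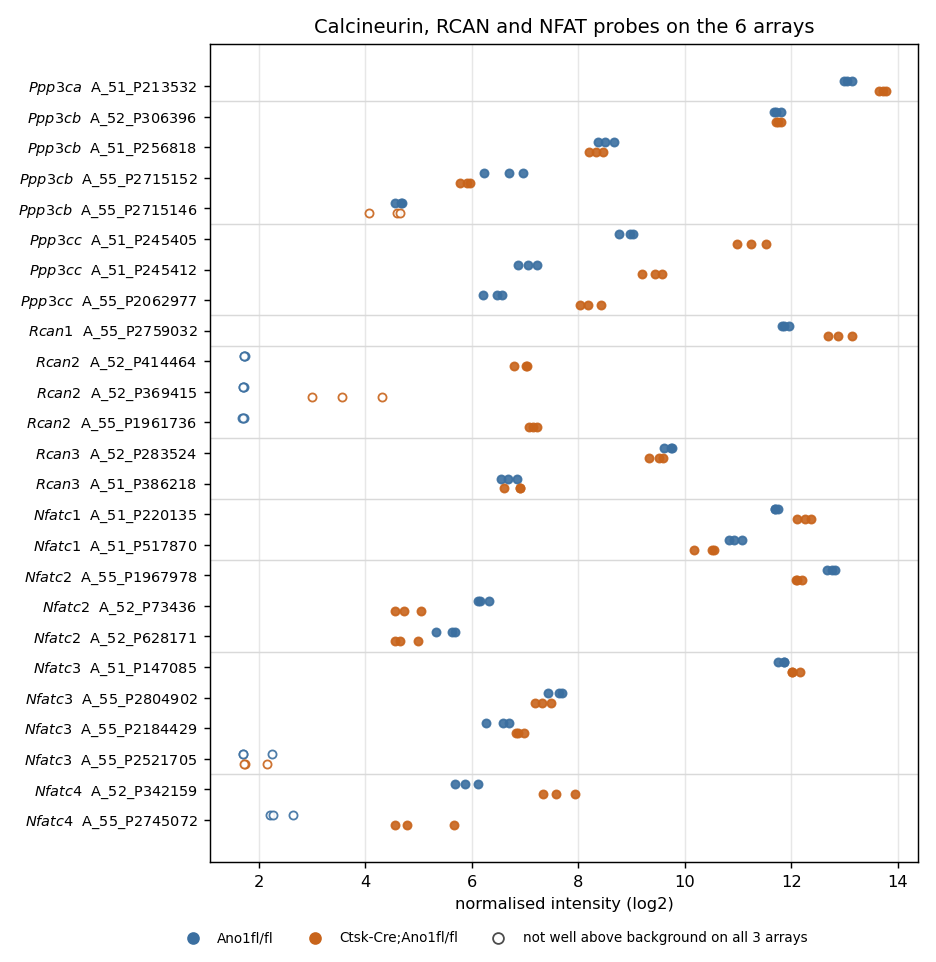
Normalised log2 intensity (horizontal axis) of the 25 probes on each array, 1 point per array, Ano1fl/fl in blue and Ctsk-Cre;Ano1fl/fl in orange. Open points belong to a group with at least 1 array on which the probe was not well above background. The groups lie apart for every Ppp3cc, Nfatc1, Nfatc2 and Nfatc4 probe and overlap for 3 of the 4 Ppp3cb probes.

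Among the catalytic subunits, Ppp3cc rose at every probe, Ppp3ca rose at its only probe, and Ppp3cb did not rise. Ppp3cc encodes the gamma isoform of the catalytic subunit, and its 3 probes are shown because they read different stretches of the gene and moved together. Bases are in lower case, 5′ to 3′ along the transcript. The first is given whole and lies across an exon junction, and the others are given by their first 30 of 60 bases:

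A_51_P245412: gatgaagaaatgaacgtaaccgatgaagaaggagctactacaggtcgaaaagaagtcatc
A_51_P245405: caactcaaacaacttaaacttggaggtgca
A_55_P2062977: gatgaatatgaaagcatagtgaaccacttc

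In the array annotation (mm9, chromosome 14, minus strand) the first starts at base 1375 of NM_008915 and spans chr14:70624827-70634977. The second starts at base 1892 of the same transcript (chr14:70617749-70617808). The third starts at base 1677 of the predicted transcript XM_006518715 (chr14:70623599-70623658). Probe A_51_P245405 gave log2 intensities of 8.76, 9.02 and 8.98 in Ano1fl/fl and 11.23, 10.98 and 11.53 in Ctsk-Cre;Ano1fl/fl. The groups were far apart, with no array near the other group, a 5.02-fold rise (log2 difference 2.33, SE 0.15, adjusted p = 9.4e-05). Probe A_51_P245412 gave 6.86, 7.23 and 7.05 against 9.44, 9.20 and 9.57, a 5.12-fold rise (log2 difference 2.36, SE 0.14). These 2 probes of NM_008915 moved alike, and the ratio of one to the other differed between the groups by 0.03 on the log2 scale, with a 95% interval of -0.18 to 0.24. Probe A_55_P2062977 gave 6.22, 6.57 and 6.48 against 8.19, 8.03 and 8.42, a smaller rise of 3.46-fold. Its ratio to A_51_P245405 on the same array was lower in Ctsk-Cre;Ano1fl/fl by 0.54 on the log2 scale (SE 0.08, adjusted p = 0.0045), and the groups of ratios did not overlap. That call held under every alternative run. The ratio of the first 2 probes was lower in Ctsk-Cre;Ano1fl/fl by 0.30 with normexp background correction (log2 difference -0.30, adjusted p = 0.015).

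Ppp3ca encodes the alpha isoform. Its probe A_51_P213532 (base 2622 of NM_008913, chr3:136598468-136598525) read 13.04, 12.98 and 13.13 in Ano1fl/fl and 13.65, 13.71 and 13.78 in Ctsk-Cre;Ano1fl/fl. The arrays of the groups did not overlap, and the rise was 1.59-fold (log2 difference 0.66, SE 0.08, adjusted p = 0.00091).

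Ppp3cb encodes the beta isoform, and its 4 probes lie on 4 different transcripts. The probe at base 3092 of NM_008914, A_52_P306396 (chr14:21319265-21319324, minus strand), is shown by its last 30 bases because they hold AATAAA, the letters of the polyadenylation signal, in capitals:

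A_52_P306396: aacagtagcacacAATAAAttccatgcatg

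This probe read 11.80, 11.68 and 11.72 against 11.70, 11.75 and 11.80, and the groups overlapped. The log2 difference was 0.02 with a 95% interval of -0.16 to 0.20, and its sign turned with 75th percentile scaling. A_51_P256818 (ENSMUST00000160812) and A_55_P2715146 (ENSMUST00000162217) gave log2 differences of -0.18 and -0.20 and were not called. The remaining probe, A_55_P2715152, starts at base 328 of ENSMUST00000162107 and gave 6.24, 6.70 and 6.96 against 5.91, 5.97 and 5.77. All 3 Ctsk-Cre;Ano1fl/fl arrays lay below the lowest Ano1fl/fl array, and the fall was 1.68-fold (log2 difference -0.75, SE 0.19, adjusted p = 0.016). Against A_52_P306396 this probe changed unequally by -0.77 (SE 0.21, adjusted p = 0.036). The fall lost its call without Ano1fl/fl replicate 2 (adjusted p = 0.054) and in the methods' t-test after Benjamini-Hochberg (adjusted p = 0.057), and the unequal change lost its call without 5 of the 6 arrays in turn, all but Ano1fl/fl replicate 1 (adjusted p up to 0.11).

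**Figure D3:**
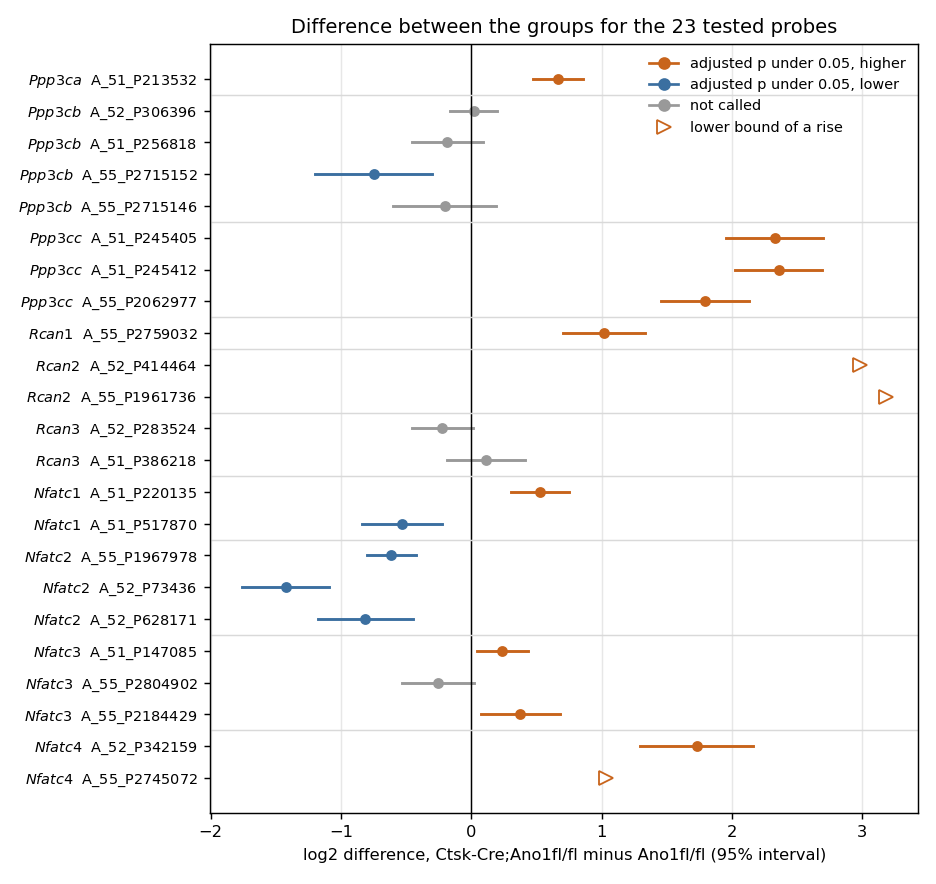
Log2 difference between the groups (Ctsk-Cre;Ano1fl/fl minus Ano1fl/fl, horizontal axis) with its 95% interval for the 23 tested probes, orange where called higher, blue where called lower and grey where not called. Open triangles give a lower bound on the log2 scale for the probes that no Ano1fl/fl array had well above background. The Nfatc1 probes lie on opposite sides of 0, at 0.53 and -0.53, and all 3 Nfatc2 probes lie below 0.

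Of the RCAN genes, Rcan1 rose, Rcan2 was well above background in Ctsk-Cre;Ano1fl/fl alone, and neither probe of Rcan3 was called. Rcan1 has a single probe, A_55_P2759032, at base 2243 of NM_001081549 (chr16:92392242-92392301, minus strand). The array annotation also assigns it to NM_019466, so it does not separate the transcripts that begin at the 2 Rcan1 starts. Its first 30 bases are:

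A_55_P2759032: ggcccagtgtttctagttctgcactttgaa

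It read 11.82, 11.96 and 11.87 in Ano1fl/fl and 12.68, 13.15 and 12.87 in Ctsk-Cre;Ano1fl/fl. Every Ctsk-Cre;Ano1fl/fl array lay above every Ano1fl/fl array, a 2.02-fold rise (log2 difference 1.02, SE 0.13, adjusted p = 0.0012). The rise kept its call under every alternative run, at 0.89 to 1.13 on the log2 scale.

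The promoters of Rcan1 are shown because one of its starts is known to answer to NFAT. Each run is the 250 bases before a start in RefSeq (GRCm38.p6, minus strand of chromosome 16), with the NFAT core GGAAA, on either strand (TTTCC in reverse), and the AP-1 site TGACTCA, on either strand, in capitals. The first, chr16:92400079-92400328, lies before the internal start and the second, chr16:92466170-92466419, before the upstream start:

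Rcan1 internal start: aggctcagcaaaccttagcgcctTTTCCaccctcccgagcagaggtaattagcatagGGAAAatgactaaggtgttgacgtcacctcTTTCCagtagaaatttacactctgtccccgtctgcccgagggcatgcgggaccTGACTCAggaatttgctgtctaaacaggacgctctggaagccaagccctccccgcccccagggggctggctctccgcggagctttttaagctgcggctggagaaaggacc
Rcan1 upstream start: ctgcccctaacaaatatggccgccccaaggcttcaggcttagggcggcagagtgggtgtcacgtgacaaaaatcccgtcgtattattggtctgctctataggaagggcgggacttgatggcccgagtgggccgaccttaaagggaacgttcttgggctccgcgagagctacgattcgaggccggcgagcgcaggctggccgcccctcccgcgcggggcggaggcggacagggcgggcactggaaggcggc

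The internal promoter held 3 GGAAA cores and 1 TGACTCA, and the upstream one held 0 of either. Of 32851 mouse promoters of this length, 55.6% held at least 1 GGAAA, 6.39% held 3 or more and 4.46% held TGACTCA. Promoter entries were found for 7 of the 10 genes, 12 entries in all, of which 8 held GGAAA, 4 held 3 of them, and 2 held TGACTCA, the other being a start of Rcan2 (chr17:43952749-43952998). Those with 3 GGAAA belong to Rcan1 and Nfatc4, which rose, to Nfatc2, which fell, and to Ppp3cb, which did not rise. A match of letters is a description and not a bound site.

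Rcan2 encodes the RCAN protein best known from brain and muscle. Its 3 probes are shown because 2 of them were well above background in that group alone. The first is given whole and was too dim to test, and the others lie further along the gene and are given by their first 30 bases:

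A_52_P369415: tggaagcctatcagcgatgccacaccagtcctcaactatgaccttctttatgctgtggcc
A_52_P414464: cttgcatagtccttaagaactcagtgttct
A_55_P1961736: tttgtgcacgtgtacagctcaaagagctta

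They start at bases 746 and 3000 of NM_207649 (chr17:44158001-44158060 and chr17:44176103-44176162, plus strand) and at base 3170 of NM_001286653 (chr17:44176406-44176465). A_52_P414464 read 1.74, 1.72 and 1.72 in Ano1fl/fl, where no array had it well above background, and 6.79, 7.02 and 7.04 in Ctsk-Cre;Ano1fl/fl, where all 3 did. Taking for each Ano1fl/fl array the dimmest signal still well above background there, it was at least 7.88-fold higher. A_55_P1961736 read 1.73, 1.69 and 1.70 against 7.08, 7.23 and 7.15 and was at least 9.08-fold higher. Both entered the test through the Ctsk-Cre;Ano1fl/fl arrays alone, and the Ano1fl/fl values lie at the floor of the signal, so limma's adjusted p (2.6e-06 and 1.5e-06) does not measure a spread there and the bounds stand as a description. A_52_P369415 read 1.72, 1.70 and 1.71 against 3.00, 3.56 and 4.32 and was well above background on 1 Ctsk-Cre;Ano1fl/fl array only, so it was not tested. Summed stromal and osteoblast marker intensity, 2756 to 3943 against 56428 to 93649, moved in the same direction as Rcan2. So did the osteoclast, B cell and T and NK cell sums. The neutrophil and endothelial sums moved the other way, and the macrophage sums overlapped. The part of these cell types in the result was not tested.

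Rcan3 encodes the third family member. A_52_P283524, at base 4531 of NM_022980, read 9.74, 9.61 and 9.76 against 9.51, 9.59 and 9.33, a log2 difference of -0.22 (SE 0.10, adjusted p = 0.097). The groups did not overlap, yet the difference was not called. A_51_P386218, at base 205 of the same transcript, gave 0.11 with a 95% interval of -0.18 to 0.41. The 2 probes thus had opposite signs with neither called, and their unequal change of 0.34 had an adjusted p of 0.090.

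The NFAT genes moved in different directions, with Nfatc4 higher, Nfatc2 lower, Nfatc3 close to its threshold, and the probes of Nfatc1 opposed. Nfatc1 is made as short and long isoforms that differ at the 3′ end through the choice of polyadenylation site, and its 2 probes lie on transcripts that the array annotation lists separately, with no transcript in common. A_51_P220135 starts at base 3180 of NM_016791 (mm9, chr18:80845439-80845498, minus strand). A_51_P517870 starts at base 3827 of NM_198429, further along the gene in the direction of transcription (chr18:80803664-80803723). A_51_P220135 read 11.70, 11.76 and 11.69 in Ano1fl/fl and 12.10, 12.36 and 12.25 in Ctsk-Cre;Ano1fl/fl. The groups did not overlap, and the rise was 1.44-fold (log2 difference 0.53, SE 0.09, adjusted p = 0.0039). A_51_P517870 read 11.08, 10.83 and 10.92 against 10.18, 10.51 and 10.56. Here too the groups did not overlap, but the probe fell, by 1.44-fold (log2 difference -0.53, SE 0.13, adjusted p = 0.014).

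The opposed movement was measured within each array. The log2 ratio of A_51_P517870 to A_51_P220135 was -0.62, -0.92 and -0.76 in Ano1fl/fl and -1.92, -1.86 and -1.70 in Ctsk-Cre;Ano1fl/fl. The 3 ratios of one group lay apart from those of the other, and their difference was -1.06 (SE 0.11, 95% interval -1.32 to -0.79, adjusted p = 0.0016), a 2.08-fold shift between the probes. This unequal change held under every alternative run, at -1.13 to -0.98. Of 11198 such pairs of a gene's probes on the array, 31.7% changed unequally, and in 2.63% both probes were called with opposite signs. Averaged over its probes, Nfatc1 gave a log2 difference of -0.0026 (adjusted p = 0.99). The fall of A_51_P517870 lost its call when the slide row of an array was a term in the fit (log2 difference -0.51, adjusted p = 0.10).

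Nfatc2 fell at all 3 probes. It is the NFAT best known from T cells and is also made in myeloid cells. The most 5′ of them by position, A_52_P628171 at base 1601 of NM_001037177 (chr2:168361757-168361816, minus strand), is shown whole because the fall was also seen that far upstream:

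A_52_P628171: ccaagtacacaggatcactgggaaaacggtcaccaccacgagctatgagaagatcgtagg

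It read 5.33, 5.69 and 5.64 in Ano1fl/fl and 4.56, 4.66 and 4.99 in Ctsk-Cre;Ano1fl/fl, with no overlap, a 1.76-fold fall (log2 difference -0.81, SE 0.15, adjusted p = 0.0052). A_55_P1967978, at base 6704 of NM_001136073 (chr2:168301974-168302033), read 12.76, 12.67 and 12.81 against 12.20, 12.10 and 12.11, a 1.53-fold fall (log2 difference -0.61, SE 0.08, adjusted p = 0.0012). A_52_P73436, at base 3027 of ENSMUST00000140137 (chr2:168359185-168359244), read 6.12, 6.15 and 6.32 against 4.73, 5.04 and 4.56, a 2.68-fold fall. Each of the 3 probes kept its call and sign under every alternative run. The log2 difference ran from -1.56 to -0.58 for A_52_P73436, from -0.95 to -0.33 for A_52_P628171 and from -0.71 to -0.58 for A_55_P1967978. A_52_P73436 and A_52_P628171 were dim in Ctsk-Cre;Ano1fl/fl, with signals before normalisation of 22.2 to 28.2 and 21.4 to 29.7. The lowest signals well above background on those arrays were 15.8 to 16.2. A_52_P73436 fell further than A_55_P1967978, by 0.81 on the log2 scale (SE 0.14, adjusted p = 0.0081). That inequality turned to 0.037 with normexp background correction and was not called on the deposited matrix (-0.22, adjusted p = 0.097).

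Nfatc3 gave small differences at its 3 tested probes, 2 of them called. A_51_P147085 (base 3742 of NM_010901, chr8:108652166-108652225, plus strand) gave log2 intensities of 11.87, 11.76 and 11.86 against 12.02, 12.01 and 12.17, a log2 difference of 0.24 (SE 0.08, adjusted p = 0.048). A_55_P2184429 (XM_006530753) gave 6.26, 6.69 and 6.58 against 6.99, 6.82 and 6.86, a difference of 0.38 (SE 0.13, adjusted p = 0.045). Both passed by little, and A_51_P147085 lost its call without any 1 of the 6 arrays, A_55_P2184429 without any but Ano1fl/fl replicate 2 (adjusted p up to 0.15). Over all 17 alternatives, A_51_P147085 lost its call in 11 and A_55_P2184429 in 13. A_55_P2804902 (EU887631) gave 7.42, 7.63 and 7.68 against 7.48, 7.31 and 7.18, a difference of -0.25 that was not called (adjusted p = 0.11). A_55_P2521705 did not stand well above background anywhere and was not tested. The change of A_55_P2804902 relative to A_51_P147085 was -0.49 (SE 0.15, adjusted p = 0.045), and it lost its call without Ano1fl/fl replicate 2 or 3 and without Ctsk-Cre;Ano1fl/fl replicate 2 or 3 (adjusted p up to 0.13). Over all 17 alternatives this unequal change lost its call in 9.

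Nfatc4 rose at the probe that was well above background in both groups, and its other probe gives a lower bound. Both lie on NM_023699. NFATc4 is known mainly from heart, nerve and other non-immune tissue. A_52_P342159, at base 3028 (chr14:56452542-56452601, plus strand), read 6.11, 5.87 and 5.69 in Ano1fl/fl and 7.93, 7.58 and 7.33 in Ctsk-Cre;Ano1fl/fl. No array of one group reached the other, and the rise was 3.31-fold (log2 difference 1.73, SE 0.18, adjusted p = 0.00053). A_55_P2745072, at base 2808 (chr14:56451570-56451629), read 2.64, 2.21 and 2.27, not well above background, against 5.67, 4.78 and 4.56 and was at least 2.05-fold higher. It too entered the test through the Ctsk-Cre;Ano1fl/fl arrays alone, so its adjusted p in limma (0.00070) adds no support. The summed stromal marker intensity given above moved in the same direction as Nfatc4 too, as did the osteoclast, B cell and T and NK cell sums. The neutrophil and endothelial sums moved the other way, and the macrophage sums overlapped. The part of these cell types was not tested. The Nfatc4 promoter, the 250 bases before its start (GRCm38.p6, chr14:55824545-55824794, plus strand), is shown because it is, like the internal Rcan1 promoter, among the 6.39% with 3 or more GGAAA or TTTCC, in capitals:

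Nfatc4 start: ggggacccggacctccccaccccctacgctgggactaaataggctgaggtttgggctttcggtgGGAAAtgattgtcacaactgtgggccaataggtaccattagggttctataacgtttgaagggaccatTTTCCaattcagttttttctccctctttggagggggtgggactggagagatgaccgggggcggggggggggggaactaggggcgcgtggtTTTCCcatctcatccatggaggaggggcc

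Over the 8 genes with more than 1 tested probe there were 13 pairs of a further probe with the gene's brightest, and 6 pairs changed unequally, beside 31.7% of all such pairs on the array and 4 to 6 when single arrays were left out. Besides Nfatc1 these were 1 pair each of Nfatc2, Nfatc3, Nfatc4, Ppp3cb and Ppp3cc. The Nfatc4 pair includes a probe below background in Ano1fl/fl, and its inequality of 0.90 turned to -0.58 with normexp background correction, and the order of its probes is not settled.

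**Figure D4:**
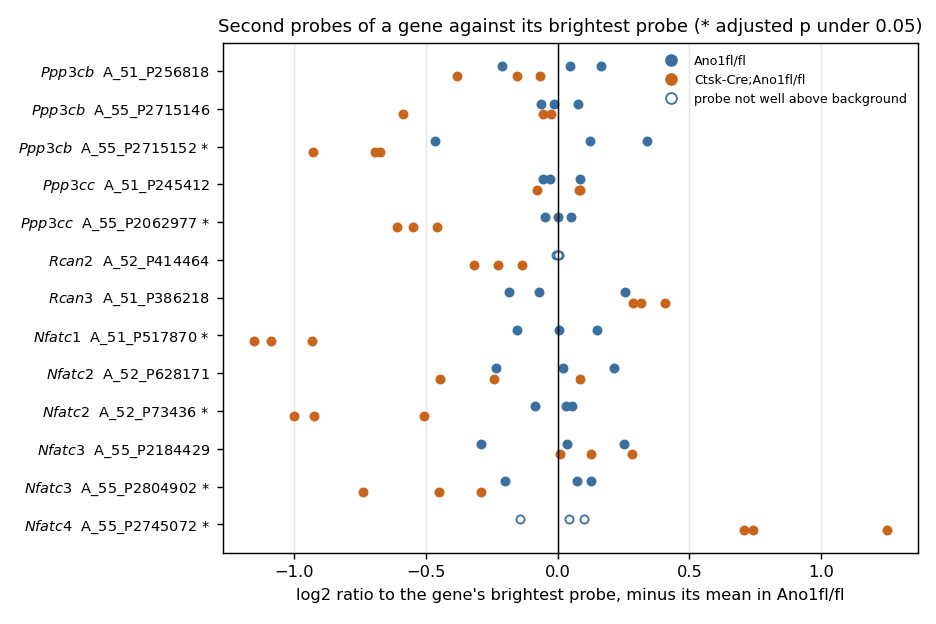
Log2 ratio of each further probe to the brightest probe of its gene on the same array, minus the mean ratio in Ano1fl/fl (horizontal axis), 1 point per array, for 13 pairs. Asterisks mark adjusted p under 0.05, and open points belong to probes not well above background in Ano1fl/fl. The Nfatc1 ratios in Ctsk-Cre;Ano1fl/fl lie about 1.06 below those in Ano1fl/fl.

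Among the partners of calcineurin and NFAT, most brightest probes were not called, though other probes of the same genes often were. The lists that follow were compiled by hand by role, each gene is read by its brightest probe, and over all 20650 genes so read 51.6% were called, 23.0% higher and 28.5% lower, with a median log2 difference of -0.06. Of the calcineurin cofactors, the regulatory B subunits and calmodulins, 0 of 4 tested genes were higher and 1 was lower, with a median of -0.04. Calm2 fell (log2 difference -0.38, SE 0.08), while Ppp3r1, the common regulatory subunit, gave 0.29 (SE 0.10, adjusted p = 0.053). The testis-type subunit gene Ppp3r2 did not stand well above background anywhere. Of the calcineurin-binding proteins, 1 of 4 tested was higher and 0 were lower, with Chp1, a calcineurin-like calcium-binding protein, at 0.64 (SE 0.09). Of 8 kinases that phosphorylate NFAT and promote its export from the nucleus, 1 was higher, Csnk1a1 at 0.28 (SE 0.07), and 0 were lower, with a median of 0.02. Another Csnk1a1 probe, A_55_P2716551, went the other way and further (-0.77, SE 0.13, adjusted p = 0.0033). Nfat5, the NFAT relative that lacks calcineurin control, gave -0.26 at its brightest probe (adjusted p = 0.061), and 4 of its 5 tested probes were lower, over a range from -0.88 to -0.26.

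Genes upstream of calcineurin went both ways. Of 10 genes of calcium entry and release, 4 were higher and 2 were lower (median 0.03). Among the higher were the inositol trisphosphate receptors Itpr2 (log2 difference 1.12, SE 0.07) and Itpr3 (0.44, SE 0.10) and the store-operated channel Orai1 (0.34, SE 0.12), and the lower were Orai3 (-0.44, SE 0.08) and the calcium sensor Stim1 (-0.29, SE 0.10). Of 9 tested genes of the calmodulin kinases and CREB, 2 were higher and 2 were lower (median -0.04). Camkk1 and Camkk2, which both activate other calmodulin kinases, moved apart, at 1.96 (SE 0.18) and -0.73 (SE 0.09). The brightest probe of Camk1 rose (0.44, SE 0.12) and that of Creb1 fell (-0.40, SE 0.11). Both genes also had a probe called the other way, A_55_P2722190 of Camk1 (-0.75, SE 0.14, adjusted p = 0.0055) and A_52_P517730 of Creb1 (0.31, SE 0.07, adjusted p = 0.014). Camk4, which activates CREB upstream of Nfatc1, had no tested probe.

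Regulators of Nfatc1 transcription also split. Of 9 inducers, 3 were higher and 3 were lower (median -0.07). Fos, the AP-1 subunit needed for Nfatc1 induction, fell 2.86-fold (log2 difference -1.52, SE 0.09, adjusted p = 7.2e-05), and Creb1 and Tnfrsf11a, the receptor of RANKL, fell by less (-0.40 each). Nfkb1 (0.59, SE 0.12), Rela (0.39, SE 0.07) and Junb (0.29, SE 0.09) rose. Of 5 repressors, 2 were higher (median 0.23). Id3 (2.37, SE 0.14) and Id2 (1.47, SE 0.08), inhibitors of basic helix-loop-helix factors, were those that rose.

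All 10 genes listed as NFATc1 targets in osteoclasts were higher, with a median log2 difference of 3.02. The list holds osteoclast markers, so it is not separate from the marker sum given above. Calcr, the calcitonin receptor, read 4.12 ± 0.25 (SD, n = 3) against 13.01 ± 0.31, and it was well above background on 2 of the 3 Ano1fl/fl arrays. Oscar, an osteoclast receptor that signals to calcium, gave a log2 difference of 6.48 (SE 0.17), and Mmp9, a matrix protease, 4.36 (SE 0.17). The smallest difference was that of Acp5, the tartrate-resistant acid phosphatase, at 0.84 (SE 0.07).

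**Figure D5:**
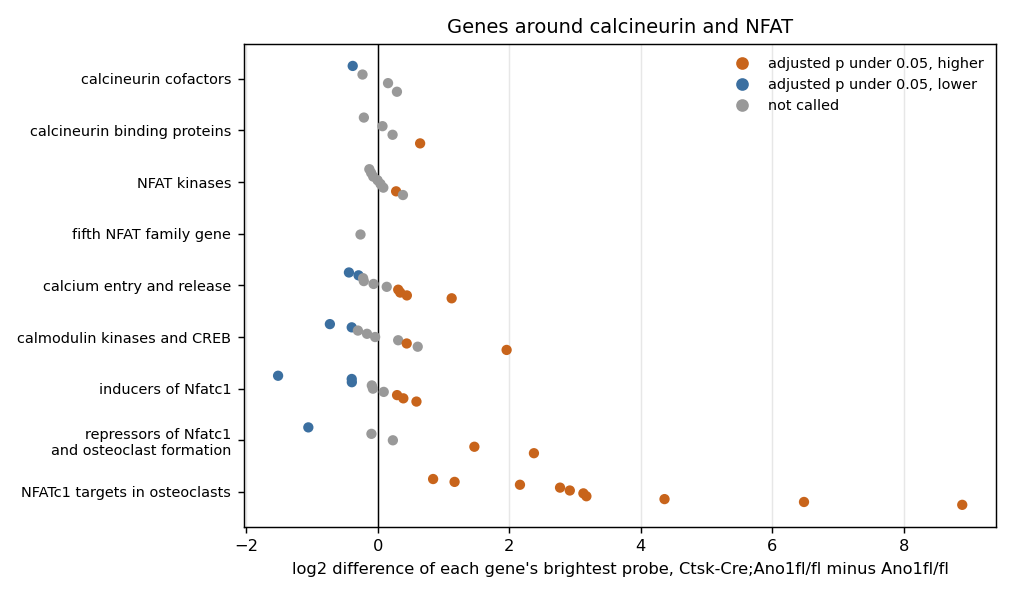
Log2 difference between the groups (horizontal axis, Ctsk-Cre;Ano1fl/fl minus Ano1fl/fl) of the brightest probe of each tested gene, 1 point per gene, by list, orange where called higher, blue where called lower and grey where not called. The 10 NFATc1 targets all lie above 0, and most points of the cofactor and kinase lists, which show brightest probes only, lie near 0.

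In all, 31 of the 59 listed genes were called by their brightest probe. For 16 of the 59, a further probe well above background on arrays of both groups was called while the brightest was not, or was called the other way. For 3 of these, Camk1, Creb1 and Csnk1a1, both were called, with opposite signs. A called brightest probe beside a further probe that was not called did not count here. No such share was taken over all genes. With slide row as a term fewer listed genes were called by their brightest probe, and fewer of all tested probes. Calm2, Camk1, Creb1, Csnk1a1, Itpr3, Junb, Nfkb1, Orai1, Stim1 and Tnfrsf11a were among those that lost their call. Over the 17 alternatives, Junb lost its call in 12, Stim1 in 10, Orai1 and Tnfrsf11a in 9 each, Creb1 in 7, Camk1 in 6 and Csnk1a1 in 4, while Ppp3r1 gained a call in 6 (adjusted p down to 0.019) and Nfat5 in 4 (adjusted p down to 0.032), 1 alternative of each being the unadjusted test.

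The probes whose centred profile over the 6 arrays was nearest to that of the brightest Nfatc1 probe, by root mean square log2 distance among 24359 probes, were those of Antxr2 (0.016), Pgrmc1 (0.030) and Abracl (0.031), 1.45-, 1.43- and 1.46-fold higher in Ctsk-Cre;Ano1fl/fl. Nearest to Rcan1 were Kdm5b (0.047), Ttc28 (0.049) and Fosl2 (0.052), 1.96-, 2.01- and 2.15-fold higher. The distance includes the difference between the groups.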

How the data were processed

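RNA of 6 osteoclast cultures, 3 per genotype, was measured on Agilent 1-colour mouse arrays. Per the file headers the authors' scanner files, read with Agilent Feature Extraction 10.7.1.1, hold intensities on a linear scale with background subtracted (the processed signal) and not normalised between arrays. The deposited matrix of values holds each spot's median intensity. A single slide, scanned once, carried all 6 arrays. Row 1 of the slide held 2 Ano1fl/fl arrays, and row 2 held 1 Ano1fl/fl and 3 Ctsk-Cre;Ano1fl/fl arrays.

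Processed signals were taken as log2, quantile normalised as the study's methods state, and averaged over spots of a probe. Control spots and spots marked as outliers were left out, as were 14 probes with a missing value. A probe counted as well above background if 0.5 or more of its spots did, and was tested where this held on all 3 arrays of a group. Groups were compared with limma 3.58.1 in R 4.3.3 over all tested probes, and p was adjusted by Benjamini-Hochberg (threshold 0.05). Ratios of a probe to its gene's brightest probe were fitted the same way over all pairs. Tested on simulated data, 31848 probes with 100 changed 2-fold and 100 changed 4-fold, the fit recovered 54% and 92% and called 12 unchanged probes. The changed probes were all further probes of a gene. They were far fewer than the 52.4% called on the real arrays, so these rates do not carry over to this comparison. For a probe below background on all arrays of a group, the fold is a lower bound against the lowest signal well above background there.

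Named are all probes of the 10 genes, Nfat5, Ppp3r1, Ppp3r2 and Ano1, up to 3 rises and 3 falls per list, and the 3 nearest probes to Nfatc1 and Rcan1. Acp5, Camk4, Tek and the further probes of listed genes were named after their values were seen. The value of 1 listed gene is not reported here. The genes and lists were chosen with earlier results of these data known. Probe sequences, transcripts and positions (mm9) come from the array files, and promoters are RefSeq's (GRCm38.p6). The data.table package (version 1.17.8), pandas 2.3.3 and matplotlib 3.10.9 were also used. The number of arrays limits precision.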

Additional observations from a re-analysis of the deposited data

How the results depend on the processing

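Counts changed with the processing as follows. With slide row as a term, chosen after seeing the data, 3 in place of 6 probe pairs changed unequally and 20 in place of 31 listed genes were called. This fit compares the Ctsk-Cre;Ano1fl/fl arrays with the 1 Ano1fl/fl array on their row, so it is also the value within that row. With 1 probe per gene, 7 genes were higher and 1 was lower in place of 12 and 5 probes. Over all 20650 genes read by their brightest probe, 23.0% were higher and 28.5% were lower. The 7 include Rcan2, whose probe entered the test through the Ctsk-Cre;Ano1fl/fl arrays alone. Under the other alternatives, 9 to 12 probes of the 10 genes were higher and 4 or 5 were lower. Leaving out each array gave 10 to 11 probes higher, 4 to 5 lower, 4 to 6 unequal pairs and 26 to 27 listed genes. The replicate numbers of the labels do not pair the samples (correlations of deviations -0.022, -0.085 and -0.094), and a replicate block gave 10 probes higher, 5 lower, 4 unequal pairs and 27 listed genes. The methods' t-test gave 11 probes higher and 5 lower unadjusted, and 11 and 4 after Benjamini-Hochberg.

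Signs turned as follows. With 75th percentile scaling, Ppp3cb A_52_P306396 gave -0.063. With normexp correction, Ppp3cb A_55_P2715146 gave 0.0018, and the unequal changes were -0.30 for Ppp3cc A_51_P245412, 0.29 for Nfatc2 A_52_P628171, 0.037 for Nfatc2 A_52_P73436 and -0.58 for Nfatc4 A_55_P2745072. With the deposited value table they were -0.18 (Ppp3cc A_51_P245412), 0.20 (Nfatc2 A_52_P628171) and -0.50 (Nfatc4). Without single arrays, Ppp3cb A_52_P306396 ran from -0.010 to 0.050, and the unequal changes of Ppp3cc A_51_P245412 from -0.0088 to 0.080 and of Nfatc3 A_55_P2184429 from -0.0070 to 0.27. Averaged over probes, Nfatc1 gave -0.0026 (adjusted p = 0.99) and Ppp3cb -0.28 (adjusted p = 0.028), which is a call of lower where the brightest Ppp3cb probe had none. The cause was not tested. The offset of 50 added in normexp correction draws the differences of dim probes toward 0 by construction. Differences of probes below background are bounds.

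The median log2 difference of all probes was -0.14 with 75th percentile scaling and -0.09 with quantile normalisation.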
